A study of Pleurotus ostreatus with 4 samples.

Results

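The sequences described here were abundant in the vegetative mycelium of the oyster mushroom Pleurotus ostreatus, were at least 2-fold less abundant in the primordium, and were lower again by at least 2-fold in the mature fruit body. They numbered 72 of the 51131 sequences in the table. The members were chosen by their measured values: at least 5 FPKM in mycelium, a difference of at least 1 in log2(FPKM + 1) from mycelium to primordium, and at least 1 more from primordium to mature fruit body. FPKM is the number of sequenced fragments scaled by the length of the sequence and by the total of the library. A last condition kept only sequences for which mycelium exceeded the highest fruiting stage by less than 4 on the same scale. Sequences lower than mycelium by 4 or more in every fruiting stage were thereby left out. The decline itself is therefore a description with no test, and the level in the young fruit body entered only through the last condition. Every library came from the wild type strain P739. Material came from 4 stages (vegetative mycelium, primordium, young and mature fruit body). Each had 1 library, so no difference could be set against a spread between replicates.

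P. ostreatus is a white-rot fungus. Its mycelium grows through wood and feeds by secreting enzymes that break down lignin and polysaccharides. Fruiting starts when hyphae aggregate into a compact primordium, which differentiates into a stalk and a cap and forms spores on the gills at maturity. The table gave no gene names, and 0 identifiers were found among the 11849 genes that RefSeq lists for strain PC9. Each sequence is therefore given by its identifier, without the ending "_All" that all carry, and by a length recovered from the FPKM steps. No function is stated for any of them, and no marker gene could be used to check the stages. In these whole-tissue libraries, fewer cells of one kind and less RNA per cell cannot be told apart.

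Depth was nearly even. The library totals recovered from the FPKM steps lay between 15048631 fragments (primordium) and 15691317 (mature fruit body), a spread of 4.27%. A fragment on 1000 nt was worth between 0.0637 and 0.0665 FPKM. Ratios of single sequences carry a 95% exact counting interval (Clopper-Pearson), which covers counting error only. The fragments carry no molecular identifiers, and the spread between mushrooms is not in it.

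Before fruiting, the 72 sequences covered a wide range of abundance. In mycelium 26 of them reached 100 FPKM, 32 lay from 20 to 100 and 14 were below 20. The lowest, median and highest values were 6.22, 44.7 and 9738 FPKM in mycelium. In primordium they were 1.93, 11.8 and 1742 FPKM. For the young fruit body the same values were 0.238, 5.76 and 611 FPKM, and for the mature one 0.149, 3.94 and 217 FPKM. The ranges of the stages overlapped, because members differed from one another far more than the stages did, while within each member mycelium was highest. At maturity 27 members still had at least 5 FPKM, 27 lay from 1 to 5 and 18 were below 1.

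Relative to mycelium, the mature fruit body retained between 0.477% and 19.5% of the FPKM of each member, with a median of 5.86%. Relative to primordium it retained between 4.17% and 47.5%, with a median of 27.8%. The median log2 difference was 1.93 from mycelium to primordium and 1.34 from primordium to mature fruit body, against 0.04 and -0.00 over all sequences that reached 5 FPKM in either of the libraries compared. In 55 of the 72 the first difference was the larger. A difference of at least 2 was found in 35 members for the first and in 9 for the second. Most of the second differences lay close to the limit that chose them, with 42 below 1.5.

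Ordered by FPKM among all 51131 sequences, the members moved down at each stage. Their median rank was 2039 in mycelium, 4031 in the primordium, 6014 in the young fruit body and 7579 at maturity. Together they took 2.84% of the recovered fragments in mycelium. That share was 0.648% in primordium, 0.309% in young fruit body and 0.160% at maturity. A single sequence, Unigene2108, carried much of this. Without it the shares were 1.99%, 0.494%, 0.255% and 0.151%, so the remaining 71 declined in the same order.

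**Figure D1:**
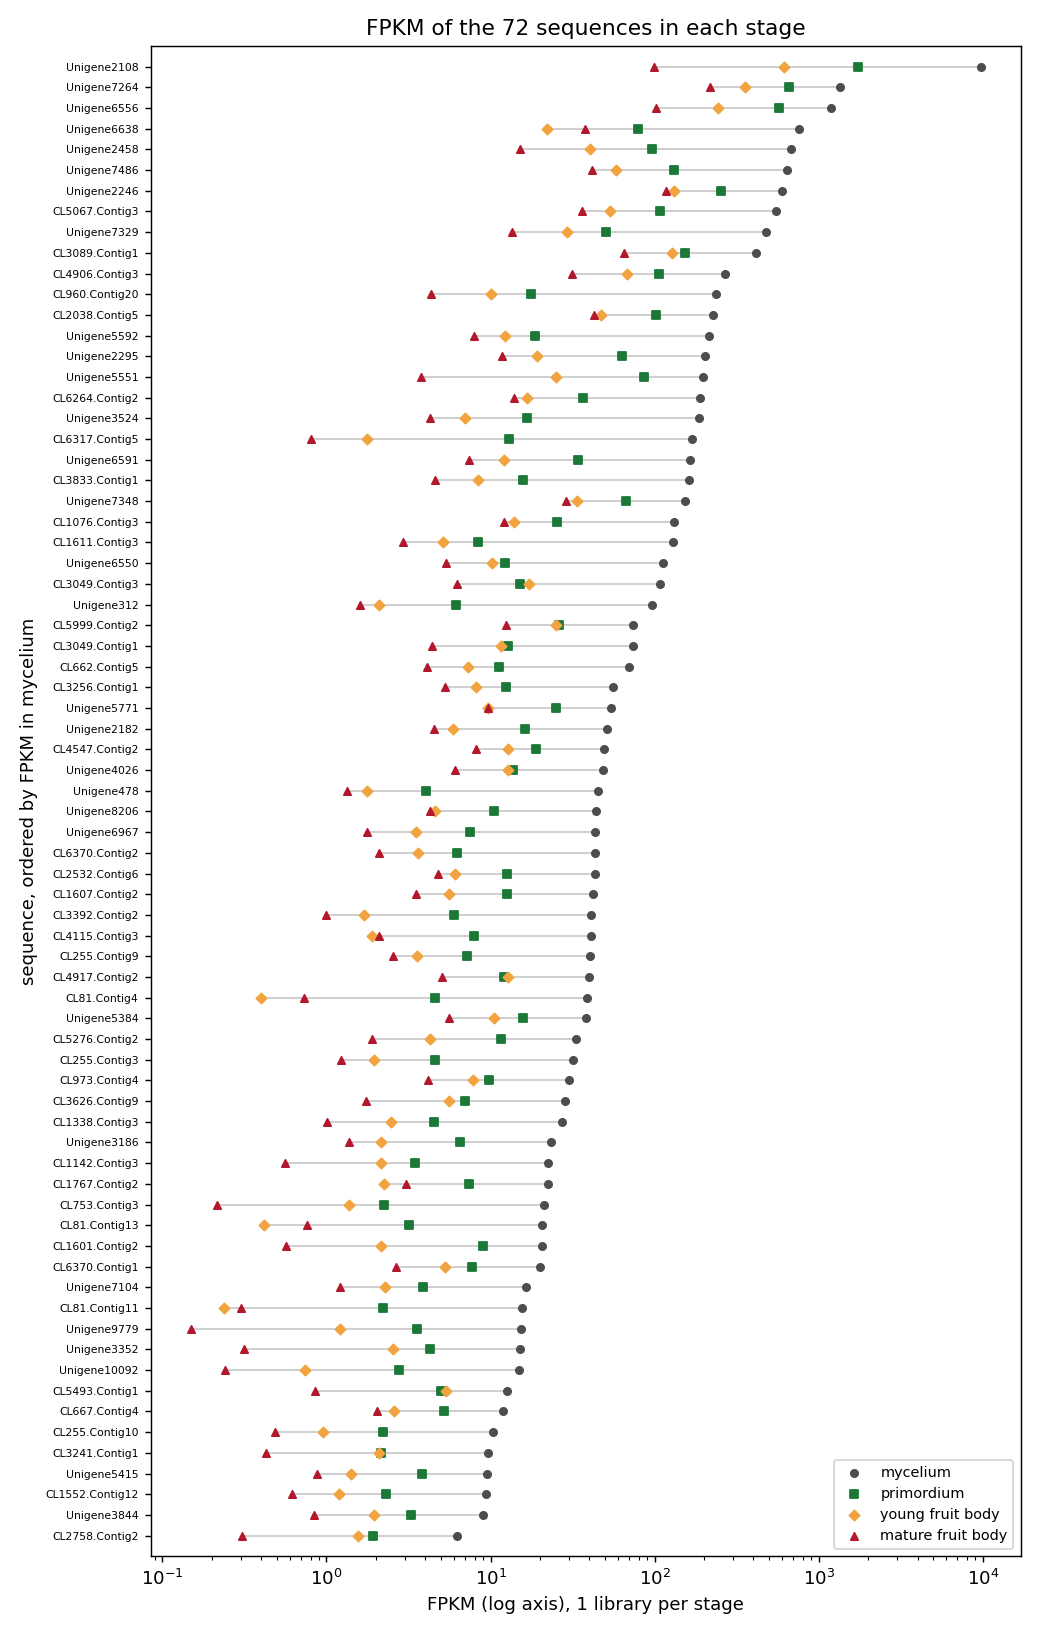
FPKM (log axis) of the 72 sequences, one per row and ordered by FPKM in mycelium, with a symbol for each stage and 1 library per stage. The mycelium value is rightmost in every row, and the young fruit body value lies between primordium and mature fruit body in 63 of the rows.

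Unigene2108 (870 nt) was the most abundant member. It had 9738 FPKM in mycelium, 1742 in the primordium, 611 in the young fruit body and 98.7 at maturity. It was the second most abundant of all sequences in mycelium (rank 2) and moved to rank 21, 105 and 1121 in the fruiting stages. Each stage was lower than the one before, and the steepest step was the last. The ratio was 5.59 from mycelium to primordium (5.51 to 5.67), 2.85 from primordium to young fruit body (2.78 to 2.92) and 6.19 from young to mature fruit body (5.84 to 6.56). Over the whole series it was 98.7-fold lower in the mature fruit body than in mycelium (93.5 to 104).

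Next in abundance were sequences with shallower declines. Unigene7264 (2005 nt) had 1345 FPKM in mycelium, 662 in the primordium, 357 in the young fruit body and 217 at maturity, which was the highest final level of the group. Its successive ratios were 2.03, 1.85 and 1.65, so the decline was spread almost evenly and no single fruiting step reached 2-fold. Unigene6556 (1456 nt) began at a similar 1184 FPKM and passed through 575 and 243 to 102. All of its steps exceeded 2-fold, with ratios of 2.06 (2.01 to 2.10), 2.37 (2.29 to 2.44) and 2.39 (2.27 to 2.51). At maturity it stood well below Unigene7264, although the pair had started close together.

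Unigene6638 (3695 nt) did not follow the order of development throughout. It had 756 FPKM in mycelium, 79.4 in the primordium, 22.1 in the young fruit body and 37.4 at maturity. The young fruit body was the lowest stage, at 0.591 times the mature level (0.551 to 0.634) from 1259 and 2169 fragments. Unigene2458 (1947 nt) began close to it, with 682 FPKM in mycelium, and continued downward through 96.6 and 40.7 to 15.1. Unigene7486 (484 nt) completed the 6 most abundant, with 644, 131, 58.1 and 41.7 FPKM in order of stage. Its steps shrank as development went on, from 4.92-fold (4.59 to 5.28) through 2.25-fold (2.01 to 2.53) to 1.39-fold (1.20 to 1.61).

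A further short sequence, Unigene2246 (395 nt), was among the 4 most abundant members at maturity. It had 596 FPKM in mycelium, 254 in the primordium, 131 in the young fruit body and 116 at maturity. Young and mature fruit body differed by 1.12-fold only (1.02 to 1.25), so the second decline was nearly complete in the young fruit body.

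Some members were lower by at least 1 in log2(FPKM + 1), and had at least 5 FPKM in the higher one, at each of the 3 consecutive steps. These were Unigene2108, Unigene6556, Unigene2458 and Unigene5551. Unigene5551 (1282 nt) had the largest ratios of the 4 in both later steps, although its last interval overlapped that of Unigene2108. It had 197 FPKM in mycelium, 85.7 in the primordium, 25.2 in the young fruit body and 3.78 at maturity, with ratios of 2.29 (2.17 to 2.43), 3.40 (3.07 to 3.76) and 6.68 (5.24 to 8.62) from step to step. Its decline steepened at each stage, which was not the case in Unigene2108 or Unigene7486. CL1601.Contig2 (785 nt) was also lower from stage to stage, at lower abundance, with 20.6, 9.06, 2.15 and 0.568 FPKM. Its last value rests on 7 fragments, and its young fruit body value was below 5 FPKM.

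On the log2(FPKM + 1) scale the largest second declines, from primordium to mature fruit body, were those of Unigene5551 (4.18), Unigene2108 (4.13), CL6317.Contig5 (2.96), CL1601.Contig2 (2.68), Unigene2458 (2.60) and Unigene6556 (2.49). As ratios of FPKM, Unigene5551 was 22.7-fold lower (18.0 to 28.9) and Unigene2108 17.7-fold lower (16.7 to 18.7). CL6317.Contig5 was 16.2-fold lower (9.26 to 31.0) and CL1601.Contig2 15.9-fold lower (7.47 to 40.6). The intervals of these 4 sequences overlap in part, so counting error alone leaves most of their order unsettled. Unigene2458 was 6.38-fold lower (5.78 to 7.06) and Unigene6556 5.65-fold lower (5.41 to 5.91), both below the lower bounds of the other 4.

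From mycelium to mature fruit body the members with the largest differences in log2(FPKM + 1) were Unigene2108, CL6317.Contig5, CL960.Contig20 and Unigene2458. CL6317.Contig5 (1029 nt) had 169 FPKM in mycelium, 13.0 in the primordium, 1.77 in the young fruit body and 0.805 at maturity. It was 210-fold lower at maturity (123 to 395), the greatest relative decline of these 4, and its final value rests on 13 fragments. CL960.Contig20, at 9788 nt the longest member, had 237, 17.8, 10.1 and 4.34 FPKM. It had lost most of its abundance by the primordium, 13.3-fold (12.8 to 13.9), and was lower by a further 4.09-fold (3.76 to 4.46) afterwards. Unigene2458 was 45.1-fold lower (41.1 to 49.5). By FPKM ratio some less abundant members exceeded Unigene2458, among them 2 named after their values were seen. Unigene9779 was 103-fold lower (18.1 to 4107), from 1 fragment at maturity, and CL753.Contig3 97.9-fold lower (37.9 to 361), from 4.

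The value in the young fruit body placed the second decline in time. In 63 of the 72 members (87.5%) it lay between primordium and mature fruit body. Of 238 other sequences with at least 5 FPKM in primordium that were lower by at least 1 in mature fruit body, 208 (87.4%) did so too, which is nearly the same share. Taking a log2 difference of at least 1 as the mark of a step, 25 members passed it from primordium to young fruit body, 11 from young to mature fruit body, 5 in both steps and 31 in neither step alone. The last 31 reached the limit only as the sum of smaller differences, with medians of 0.60 and 0.65.

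With the added demand of 5 FPKM in the higher library, 24 members were called lower in young fruit body than in primordium, of 54 that could be called. Of the 6820 sequences in the table that could be called, 1.58% were called in that direction. From young to mature fruit body 12 of 41 members were called lower, against 2.04% of the 7055 sequences that could be called. The choice of members fixed most of this, because their sum is the primordium to mature fruit body difference used by the rule. In that comparison 53 of 53 members with at least 5 FPKM were called, against 4.09% of the 7119 sequences that could be called. All 72 were called lower in primordium than in mycelium (24.6% of 8134 sequences that could be called). All 72 were also called lower in mature fruit body than in mycelium (24.3% of 8371). The remaining 19 members had less than 5 FPKM in primordium and were lower at maturity by the rule alone.

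**Figure D2:**
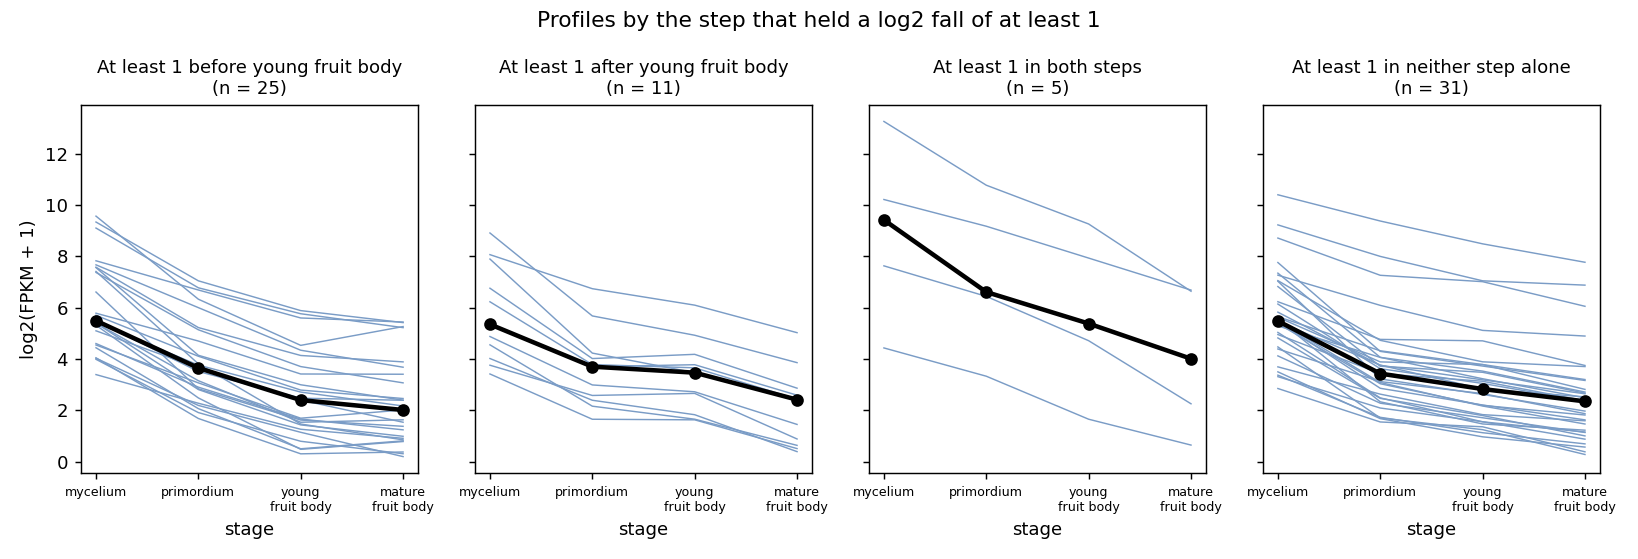
Profiles in log2(FPKM + 1) of the 72 sequences, in panels for those lower by at least 1 before the young fruit body (n = 25), after it (n = 11), in both steps (n = 5) or in neither step alone (n = 31). Thin lines are single sequences with 1 library per stage and the black line is the median of each panel, which flattens after the young fruit body in the first panel and before it in the second.

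Median profiles differed in the way the grouping set. The 25 early sequences had medians of 44.0 FPKM in mycelium, 11.6 in the primordium, 4.28 in the young fruit body and 3.04 at maturity. The 11 late sequences began alike, with 39.8 and 12.0 FPKM, but still had 10.1 FPKM in young fruit body before reaching 4.34. The 5 sequences lower in both steps had higher medians, 682, 96.6, 40.7 and 15.1 FPKM, although CL1601.Contig2 among them lay below the early medians at every stage. The 31 gradual sequences had medians of 43.6, 9.80, 6.12 and 4.10 FPKM. Single unigenes made up 30 of the 72 members, with 13 of the 25 early, 2 of the 11 late, 4 of the 5 lower in both steps and 11 of the 31 gradual sequences. The median length was 982 nt in the early, 1427 nt in the late, 1282 nt in the group lower in both steps and 1744 nt in the gradual group.

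Among the late sequences, 3 were slightly higher in young fruit body than in primordium. CL3049.Contig3 (1745 nt) had 107 FPKM in mycelium, 15.2 in the primordium, 17.2 in the young fruit body and 6.28 at maturity. CL4917.Contig2 (1914 nt) had 39.8, 12.0, 12.7 and 5.03 FPKM. CL5493.Contig1 (1427 nt) had 12.5, 4.98, 5.32 and 0.849 FPKM. The small excess over primordium was within counting error in each, since the intervals of the primordium to young fruit body ratio, 0.773 to 1.01, 0.814 to 1.10 and 0.713 to 1.23, all held 1. Their later decline was set by the choice of members. The rule requires a difference of at least 1 from primordium to maturity, and their young fruit body value lay above primordium. CL5493.Contig1 was 6.27-fold lower in mature than in young fruit body (3.84 to 10.8). The ratio was 2.73-fold in CL3049.Contig3 (2.29 to 3.27) and 2.53-fold in CL4917.Contig2 (2.09 to 3.08). In these sequences primordium and young fruit body lay within counting error of each other, between 2 declines.

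Among the early sequences, 6 had a lower value in young than in mature fruit body. Besides Unigene6638 these were CL81.Contig4, CL81.Contig11, CL81.Contig13, CL4115.Contig3 and CL1767.Contig2, the last pair named after their values were seen. In CL81.Contig13 (3872 nt) the ratio of young to mature fruit body was 0.554 (0.326 to 0.920), from 25 and 46 fragments. In CL81.Contig4 (7 and 13 fragments), CL81.Contig11 (14 and 18), CL4115.Contig3 (16 and 18) and CL1767.Contig2 (13 and 18) the numbers were small. Unigene6638 and CL81.Contig13 were the 2 members whose interval lay wholly below 1.

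The 2 parts of the second decline were also compared with those of other sequences. These had at least 5 FPKM in primordium and were lower by at least 1 at maturity. The young fruit body value was not used to choose either set, apart from the upper limit. The difference before the young fruit body was larger than the one after it in 42 of the 72 members (58.3%), and in 32 of the 53 members with at least 5 FPKM in primordium (60.4%). Among 79 other declining sequences that had stood within 1 of mycelium in primordium, 34 (43.0%) had the larger difference first. Among 155 that had been higher in primordium than in mycelium by at least 1, 43 (27.7%) did. Their median differences were 0.61 before and 1.05 after the young fruit body, whereas those of the members were 0.88 and 0.63. The order of the 3 sets was the same under the 3 other library scalings, with 58.3% to 63.9% of members, 43.0% to 49.4% of the second set and 26.5% to 29.7% of the third. All sets come from the same 3 libraries, so this order is a description without a test. The added 1 in log2(FPKM + 1) shrinks differences at low FPKM, and other pseudocounts were not tried for these shares. As FPKM ratios the medians of the members were 2.02 before and 1.80 after the young fruit body. The larger part can change on that scale, as in Unigene9779 (2.94 before, 8.15 after, 1 fragment at maturity).

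**Figure D3:**
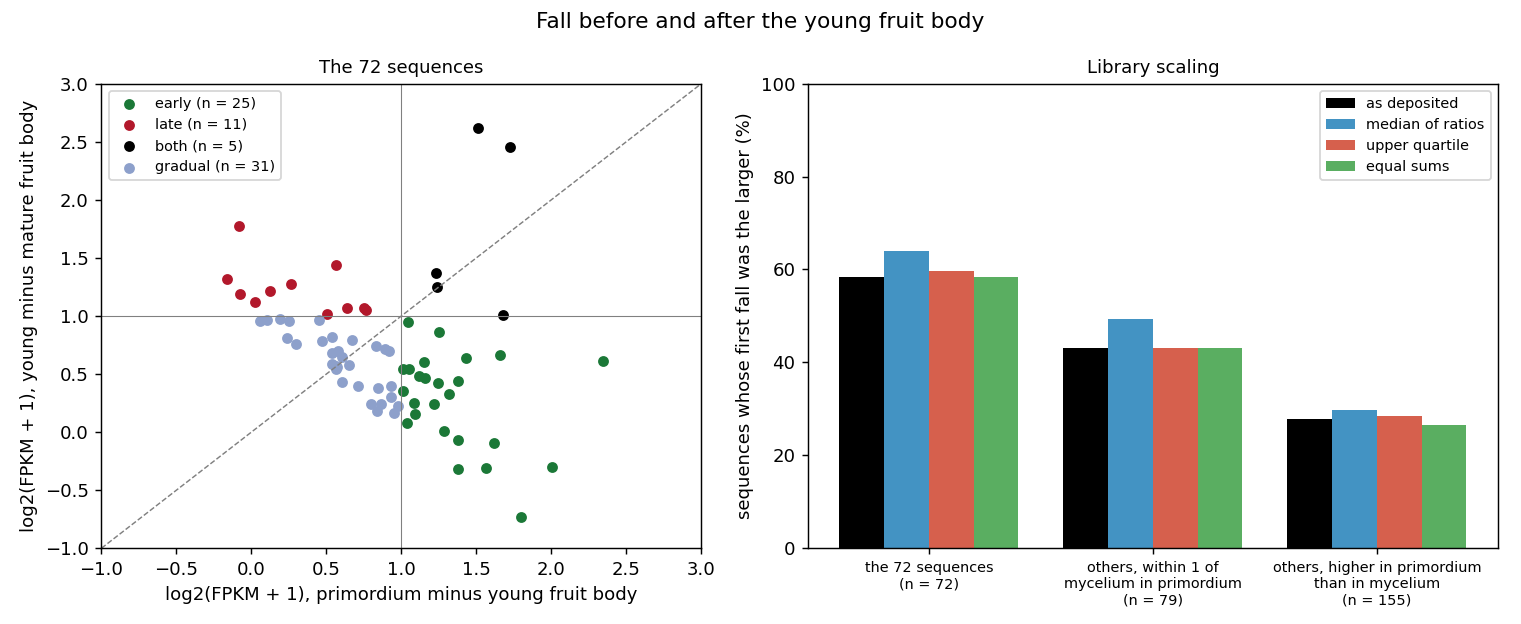
Left, log2(FPKM + 1) difference from primordium to young fruit body (x) against that from young to mature fruit body (y) for the 72 sequences, coloured by the step that reached 1, with the dashed line marking equal differences. Right, percent of sequences whose first difference was the larger, for the 72 and for 79 and 155 other declining sequences. Each library scaling has a bar, and the 72 stand highest, at 58.3% as deposited. Only the other sequences were required to have at least 5 FPKM in primordium.

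Values near the limits of the rule give its sharpness. The minimum of 5 FPKM in mycelium removed no sequence on its own. The members nearest to it were CL2758.Contig2 (207 nt), with 6.22 FPKM in mycelium, 1.93 in the primordium, 1.57 in the young fruit body and 0.308 at maturity, and Unigene3844 (835 nt), with 8.94, 3.26, 1.94 and 0.840 FPKM. CL2758.Contig2 rests on 20, 6, 5 and 1 fragments and is the one member whose primordium to mature fruit body interval (0.759 to 288) held 1.

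Just inside the limit of the first decline were Unigene7264 (1.02) and Unigene6556 (1.04), described above. Just outside it were Unigene8066 (2842 nt, 0.99), with 880, 441, 285 and 196 FPKM in order of stage, and Unigene3785 (867 nt, 0.99), with 343, 172, 91.2 and 57.2 FPKM. In all, 125 sequences failed by this limit alone, more than the 72 that passed. The excluded pair also had lower values from one stage to the next throughout.

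At the limit of the second decline stood CL5999.Contig2 (866 nt, 1.02) inside it, with 74.1, 26.2, 25.1 and 12.4 FPKM, and CL1076.Contig3 (5360 nt, 1.02), with 132, 25.5, 13.8 and 12.0 FPKM. They reached nearly the same total by different routes, CL5999.Contig2 almost wholly after and CL1076.Contig3 mostly before the young fruit body. Unigene628 (235 nt) and CL4535.Contig2 (2143 nt), both at 1.00 after rounding, stayed just below, with 10.7 and 5.15 FPKM in primordium and 4.88 and 2.08 FPKM at maturity.

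The upper limit of 4 fell in a gap. Inside it the nearest members were CL1611.Contig3 (4688 nt), with 129, 8.35, 5.15 and 2.92 FPKM, and Unigene312 (1154 nt), with 96.6, 6.16, 2.08 and 1.60 FPKM, at 3.80 and 3.77. Outside, 7 sequences met all other conditions, and the nearest were CL1897.Contig4 at 4.78 and CL2068.Contig5 at 5.06. CL1897.Contig4 (5037 nt) had 158 FPKM in mycelium and 4.79 in primordium, and CL2068.Contig5 (1849 nt) had 301 and 8.05. They were lower again at maturity, at 1.49 and 1.14 FPKM.

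A second decline was rare among sequences that were lower in primordium, as it was among all sequences. Of 2005 sequences with at least 5 FPKM in mycelium and a first difference of at least 1, the 72 were 3.59%. A majority of 1649 (82.2%) stayed within 1 of primordium at maturity, and 153 (7.63%) were higher again by at least 1. Beyond the upper limit lay 124 sequences without a second decline and 7 with one. Of 7119 sequences with at least 5 FPKM in primordium or mature fruit body, 4.09% were called lower at maturity. That share is similar but has another base, since the 2005 had a median of only 2.58 FPKM in primordium. Medians of the 1649 level sequences were 14.2, 2.58, 2.69 and 2.77 FPKM in order of stage, lower than those of the members at every stage. The rule itself requires at least 1 FPKM in primordium of a member. The level sequences had a median length of 1442 nt and 61.2% were contigs of clusters. Among members the median length was 1202 nt and 58.3% (42 of 72) were contigs.

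Taken by what happened in the first step, a second decline of at least 1 was found in 79 of 2005 sequences lower in primordium (3.94%), in 78 of 4371 within 1 of mycelium (1.78%) and in 47 of 737 higher in primordium (6.38%), all with at least 5 FPKM in mycelium. The primordium library enters both differences, so these shares are not independent of each other.

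The 42 contigs among the members came from 36 clusters, which are groups of related assembled sequences. These clusters held 232 contigs in all, with a median of 3 and a range of 1 to 42. The division of fragments among contigs of the same cluster is not described in the labels or the table, and its part in the results was not tested. In 25 of the 36 clusters the members made up more than 50% of the summed mycelium FPKM. The summed FPKM of the cluster met the same rule in 17 of the 36.

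In each of the 4 clusters with several members, those members fell into the same group by the timing of the second decline. In CL81, CL81.Contig4 (1142 nt) had 38.9 FPKM in mycelium, 4.60 in the primordium, 0.398 in the young fruit body and 0.726 at maturity. CL81.Contig13 had 20.7, 3.19, 0.419 and 0.757 FPKM, and CL81.Contig11 (3813 nt) had 15.5, 2.21, 0.238 and 0.301 FPKM. The lowest value was that of the young fruit body in each of them, with 11.5-fold (5.35 to 29.7), 7.61-fold (4.999 to 12.1) and 9.28-fold (5.33 to 17.5) less than in primordium. For CL81.Contig4 and CL81.Contig11 the ratio of young to mature fruit body, 0.549 (0.185 to 1.48) and 0.792 (0.365 to 1.69), was within counting error of 1. Longer contigs of the same cluster differed little between stages: CL81.Contig10 (7574 nt) had 2.78, 2.47, 1.78 and 2.17 FPKM.

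In CL255 the decline was gradual. CL255.Contig9 (2268 nt) had 40.7, 7.21, 3.58 and 2.53 FPKM in order of stage. CL255.Contig3 (4662 nt) had 31.8, 4.60, 1.94 and 1.23 FPKM, and CL255.Contig10 (4197 nt) had 10.3, 2.20, 0.959 and 0.486 FPKM. Their primordium to mature fruit body ratios, 2.85 (2.23 to 3.67), 3.74 (2.95 to 4.78) and 4.53 (3.07 to 6.88), had overlapping intervals. The most abundant contig of the cluster in mycelium, CL255.Contig17 (1174 nt), was no member, since it differed by less than 1 from primordium to maturity. It had 65.8, 3.51, 1.60 and 1.90 FPKM.

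CL3049.Contig1 (3415 nt) had 74.0, 12.8, 11.6 and 4.42 FPKM and shared the late course of CL3049.Contig3. Primordium and young fruit body differed by 1.10-fold (0.983 to 1.23), and young and mature fruit body by 2.63-fold (2.26 to 3.06). In CL6370, the 2 contigs of the cluster were both members. CL6370.Contig2 (2006 nt) had 43.2, 6.26, 3.63 and 2.10 FPKM, and CL6370.Contig1 (2036 nt) had 19.97, 7.70, 5.29 and 2.66 FPKM. CL6370.Contig2 was the more abundant in mycelium and CL6370.Contig1 in each fruiting stage. Their first ratios were 6.91 (5.93 to 8.08) and 2.59 (2.23 to 3.02), while their second ratios, 2.99 (2.24 to 4.01) and 2.90 (2.25 to 3.75), were close.

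Of the 190 other contigs of the same clusters, the 31 with at least 5 FPKM in mycelium tended to differ in the same direction. That minimum leaves out contigs low in mycelium, such as CL6317.Contig1 below. Of the 31, 20 (64.5%) were lower by at least 1 in primordium, against 30.03% of 3826 contigs of other clusters with the same minimum. From primordium to mature fruit body their median difference was 0.49, against -0.00 in other clusters, and 27 of the 31 had the lower value at maturity. By at least 1, 3 of the 31 (9.68%) were lower and 0 were higher, against 1.99% and 4.26% in other clusters. Contigs of a cluster are not independent of each other, so no test is given.

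Those 3 contigs were CL1601.Contig1, CL4115.Contig1 and CL4115.Contig2, named after their values were seen. CL4115.Contig1 (941 nt) had 483 FPKM in mycelium, 384 in the primordium, 217 in the young fruit body and 91.2 at maturity, and CL4115.Contig2 (934 nt) had 325, 348, 228 and 99.1 FPKM. From mycelium to primordium their ratios were 1.26 (1.22 to 1.31) and 0.933 (0.896 to 0.971), and from primordium to maturity they were 4.21-fold (3.96 to 4.47) and 3.52-fold (3.32 to 3.73) lower. The member of this cluster, CL4115.Contig3 (546 nt), was far less abundant and declined earlier, with 41.1, 7.91, 1.90 and 2.10 FPKM.

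The cluster of CL6317.Contig5 held a contig with the opposite course. CL6317.Contig1 (289 nt) was at 0 fragments in mycelium (a count that allows up to 3) and at 0.230 FPKM in primordium from 1 fragment. It then reached 44.5 FPKM in young and 34.4 in mature fruit body, the stages at which CL6317.Contig5 was at 1.77 and 0.805 FPKM. CL6317.Contig10 (1080 nt) had 36.2 FPKM in mycelium and 0.246, 0.361 and 0.295 FPKM in the fruiting stages, so that it was near 0 from the primordium on, where CL6317.Contig5 kept 13.0 FPKM. In CL1767 and CL5493 the most abundant contig was not lower by 2-fold at any stage. CL1767.Contig4 (1345 nt) had 114, 118, 125 and 126 FPKM beside the member CL1767.Contig2 (377 nt) with 22.4, 7.40, 2.24 and 3.04 FPKM. CL5493.Contig2 (3209 nt) had 53.1, 69.8, 53.7 and 49.3 FPKM beside CL5493.Contig1.

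**Figure D4:**
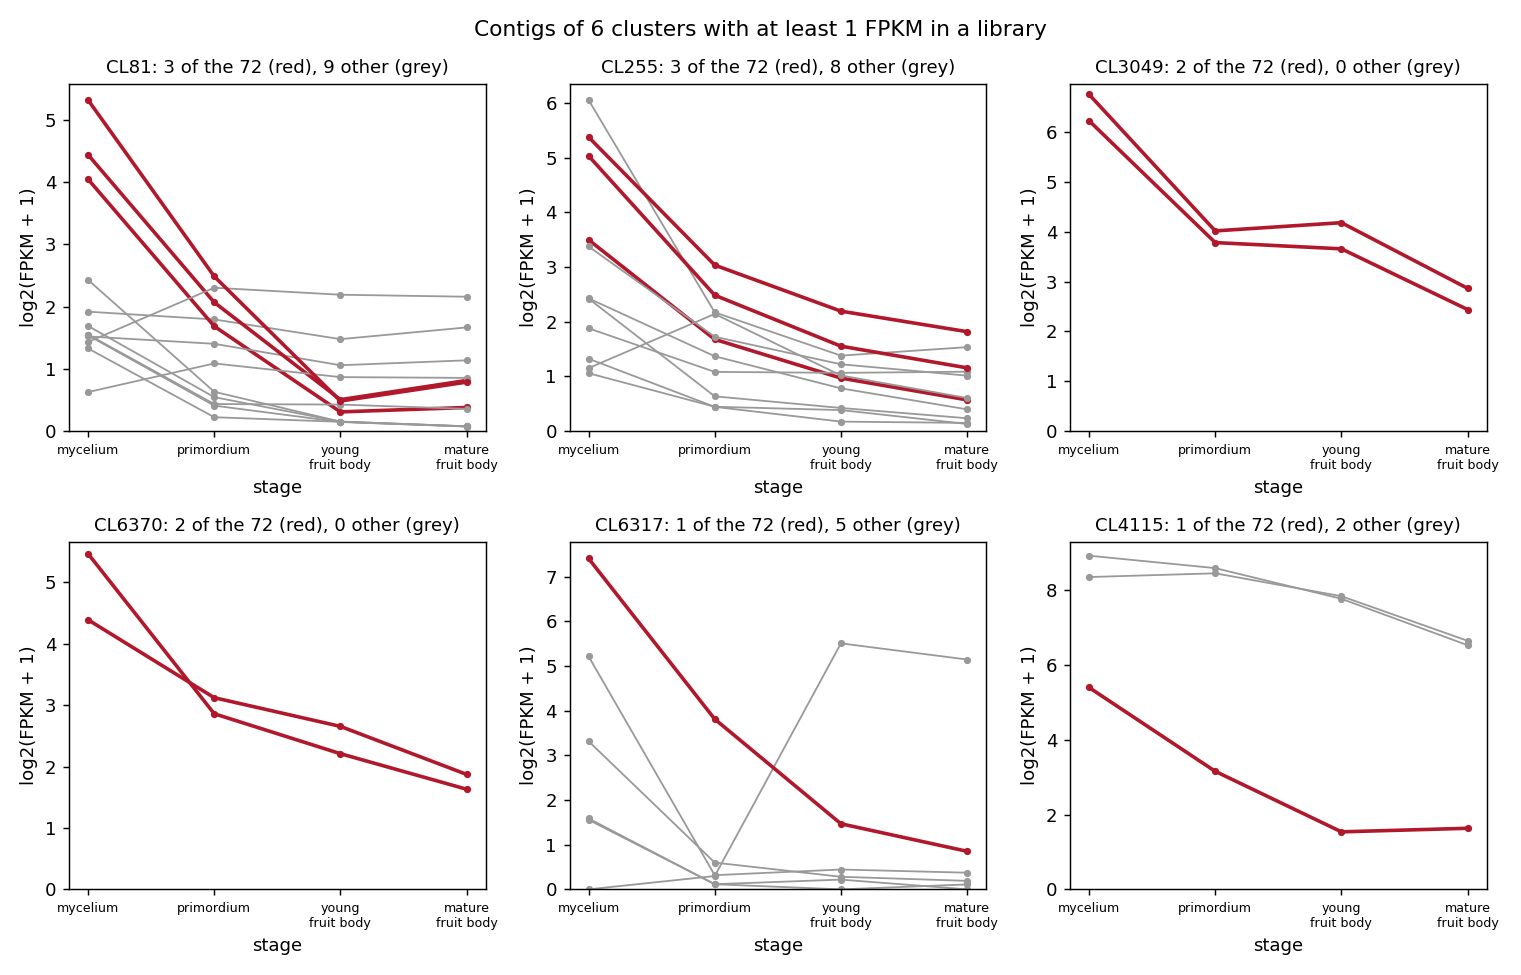
log2(FPKM + 1) by stage, 1 library each, for contigs of 6 clusters with at least 1 FPKM in a library, with members in red and other contigs in grey. The 3 members of CL81 have their lowest value in young fruit body, within counting error of maturity in CL81.Contig4 and CL81.Contig11. CL6317.Contig1 reaches 44.5 FPKM in young fruit body where the red contig of that cluster is at 1.77 FPKM.

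Counting error was small for most members. Mature fruit body values rested on 1 to 6821 fragments, with a median of 81. The interval of the ratio lay wholly above 1 in 72 of 72 members for mycelium over primordium and in 71 of 72 for primordium over mature fruit body, and wholly above 2 in 64 and 54. The rule used the same counts and sets both of these ratios above 2. The intervals therefore give the size of counting error only and are no separate support for the declines. For primordium over young fruit body it lay wholly above 1 in 56 members, and for young over mature fruit body in 53. Unigene9779, Unigene3352, Unigene10092 and CL2758.Contig2 had 3 or fewer fragments at maturity and wide intervals. Unigene9779 (428 nt), named for this after its values were seen, had 23 fragments in primordium and 1 in mature fruit body, a ratio of 24.0 (3.89 to 988).

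The number of sequences depended on the scale and the limits: 167 met the rule with a pseudocount of 0.1, 23 with a pseudocount of 5, 4 with both declines at least 2 and 303 with both at least 1.5-fold. Library scaling left 71 to 80 sequences and kept 60 to 72 of the 72.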

How the data were processed

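RNA of 4 stages of P. ostreatus was sequenced on an Illumina HiSeq instrument after Trizol extraction, per the labels' protocols. The deposited values are FPKM with 4 decimals, per the file headers. Aligner, assembly and filters: not given in the sources used here. Columns were assigned to stages by the short name in each sample's description.

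Fragment counts were recovered because FPKM values are whole multiples of 1 fragment per length and library total. Totals came from the most common FPKM ratios and from the period that made lengths whole over 6922 sequences. The shortest length of at least 200 nt giving whole counts in all libraries was taken, so a length and its counts may be understated by a common factor. Whole counts were found for 100% of 17726 sequences above 0.5 FPKM in every library, against 2.66% with shifted totals, within 5.1e-05 FPKM. The recovery and the rule were also run on simulated data, whose outcome is not used here. The simulated lengths were shorter than those of the longest members. Declines were planted in abundant sequences only, so members with few fragments were not covered.

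A sequence was called lower where log2(FPKM + 1) differed by at least 1 and the higher library had at least 5 FPKM. Named members were the 6 highest in mycelium, the 6 largest second declines, the 4 largest total declines, the 4 highest at maturity, those lower at each step, the 3 that were highest in young fruit body relative to primordium, those nearest each limit, and members of up to 4 clusters with several members. Declines were ranked in log2(FPKM + 1). Members, rule and lists were chosen with earlier results of these data known. The alternatives were other pseudocounts, limits, scalings, counting intervals and cluster sums. Python 3.11.15, numpy 2.4.6, pandas 2.3.3, scipy 1.17.1, numba 0.67.0 and matplotlib 3.10.9 were used.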

Additional observations from a re-analysis of the deposited data

How the results depend on the processing

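The number of sequences declining further was 72 and moved by over 1.5 times under 4 of the 12 alternatives: 167 with a pseudocount of 0.1, 23 with a pseudocount of 5, 4 with both declines at least 2 and 303 with both at least 1.5-fold. These settings admit more or fewer sequences by construction. Each setting has its own members, so the calls within fruiting are given with their base. From primordium to young fruit body 24 of 72 were called lower. With a pseudocount of 5 it was 9 of 23, and with declines of at least 2 it was 4 of 4. A pseudocount of 0.1 gave 27 of 167 and the 1.5-fold limit 28 of 303. From young to mature fruit body 12 of 72 were called. The same 4 settings, in this order, gave 4 of 23, 2 of 4, 14 of 167 and 17 of 303. Summing FPKM over clusters gave 7 of 57. Of the original 72, median-of-ratios scaling kept 72 (of 80), equal sums 65 (of 71) and the upper quartile 60 (of 73). The upper quartile and equal sums shifted the median mycelium to primordium difference by -0.24 and -0.15 (log2). For 49 of the 72 the counting intervals lay beyond 2-fold in both declines with the other limits kept. The number whose decline was larger before the young fruit body, 42, was 42 to 46 under the scalings, an alternative chosen after seeing the data. Other pseudocounts were not tried for this number. Second declines of the 29 named members kept their direction in 145 recalculations. That outcome was fixed in advance, because a pseudocount cannot reverse a difference. The scalings shifted the median primordium to mature fruit body difference by at most 0.096. Sizes did change, and 19 of the 145 values fell below 1, the limit of the rule. The smallest was 0.38, for CL2758.Contig2 with a pseudocount of 5. No paired analysis was possible because the stages were not replicated.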
